A study of Mus musculus with 2 samples.

Results

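A set of 10 genes of skeletal muscle formation was followed across total RNA-seq libraries of mouse gastrocnemius, the large calf muscle, at 14 days of age. They are the satellite cell genes Pax7, Pax3, Calcr and Cdh15, the myogenic basic helix-loop-helix factors Myf5, Myod1, Myog and Myf6, and the fusion genes Mymk and Mymx. The genes were taken by symbol from a list whose rule uses no measured value, and all 10 of the list were found among the 55536 annotated genes of the deposited gene table. The animals were male B6CASTF1/J mice, first-generation hybrids of C57BL/6J and CAST/EiJ, with no treatment and no engineered allele given in the labels. The series holds 1 group of 2 biological replicates, with 300 ng of RNA per library and the ERCC set of control RNAs mixed in. The labels name 3 males and give both libraries the same donor identifier, so the labels do not tell whether a library was 1 animal or a pool and whether the animals differed. The p-values ask only whether these 2 libraries differ beyond counting error. They measure no spread between animals or libraries, and a difference may be technical.

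Satellite cells are the resident stem cells of muscle, lying between the fibre and its basement membrane, and Pax7 is their defining transcription factor. When they enter the myogenic programme they express the basic helix-loop-helix factors, of which Myf5 and Myod1 act in commitment and Myog and Myf6 in differentiation and in the fibre itself. Differentiating myoblasts then join growing fibres by membrane fusion, which needs the multipass membrane protein myomaker (Mymk) and the micropeptide myomixer (Mymx). In rodents the second postnatal week is a time of fibre growth to which satellite cells still add nuclei.

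Replicate 1 held 40825601 expected counts and replicate 2 held 37329025, and a floor of 3 counts corresponded to 0.0735 and 0.0804 CPM. Added control RNAs took 0.731% and 0.881% of the counts. The labelled tissue carried its defining markers: all 8 myofibre markers, among them the skeletal actin Acta1 and the muscle creatine kinase Ckm, were above 1 TPM (a level per transcript length, scaled to the same sum in each library), at a median of 11506 TPM. Of the 7 melanocyte and 7 neuron markers, 1 each reached 1 TPM in both libraries, and the melanocyte genes Tyr, Mlana and Slc45a2 and the neuronal gene Elavl4 stayed under the floor in both.

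The 4 basic helix-loop-helix genes are paralogs, and a part of their coding sequence in which they are closely alike is shown here because reads there could in principle be assigned to the wrong gene. A window of 90 bases in the helix-loop-helix part, with capitals for bases that all 4 genes share, reads as follows in the GENCODE M21 transcripts (GRCm38):
Myf5: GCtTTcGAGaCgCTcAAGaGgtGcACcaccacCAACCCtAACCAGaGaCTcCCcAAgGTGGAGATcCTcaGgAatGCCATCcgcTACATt
Myod1: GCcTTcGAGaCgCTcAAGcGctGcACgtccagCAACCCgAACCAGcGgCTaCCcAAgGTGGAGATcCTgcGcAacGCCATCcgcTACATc
Myog: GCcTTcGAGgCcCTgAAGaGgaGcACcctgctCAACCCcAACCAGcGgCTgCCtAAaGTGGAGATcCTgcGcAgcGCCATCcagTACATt
Myf6: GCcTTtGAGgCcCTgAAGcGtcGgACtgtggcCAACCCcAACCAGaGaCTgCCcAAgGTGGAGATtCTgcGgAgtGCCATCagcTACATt
The window spans codons 102 to 131 of Myf5, 128 to 157 of Myod1, 100 to 129 of Myog and 112 to 141 of Myf6. All 4 genes share 59 of the 90 bases (65.6%). The closest pair is Myf5 and Myod1, with 75 identical bases (83.3%), and the pairs Myf5 and Myog and Myod1 and Myf6 are the least alike, with 67 (74.4%). Differences are spread along the window, and over the whole transcripts no run of 31 bases was shared between any pair of the 4 genes. Nor did any of the other 5 expressed genes, Pax7, Calcr, Cdh15, Mymk and Mymx, share such a run with another annotated gene, whereas Pax3 shared 73 of its 6181 runs (1.18%).

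In both libraries 8 of the 10 genes reached 1 TPM, while 49.2% of the 22028 annotated protein-coding genes did so. There were 5 at 5 TPM or more and 4 at 10 TPM or more. The order of mean levels ran Myf6, Myog, Mymk, Myod1, Cdh15, Mymx, Myf5, Pax7, Calcr and Pax3. Neighbours in that order were set apart where the values of the 2 libraries did not overlap and the 95% exact binomial interval of their ratio excluded 1 in both libraries. Of the 9 neighbouring pairs 2 could not be set apart. Mymk over Myod1 had an interval of 1.12 to 1.41 in replicate 1 and of 0.990 to 1.25 in replicate 2, and Myf5 over Pax7 had 1.03 to 1.63 in replicate 1 and 0.625 to 1.04 in replicate 2, and the values of Myf5 and Pax7 overlapped. Because this is RNA of a whole muscle, fewer cells of a type and less RNA per cell cannot be told apart in any of these levels.

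**Figure D1:**
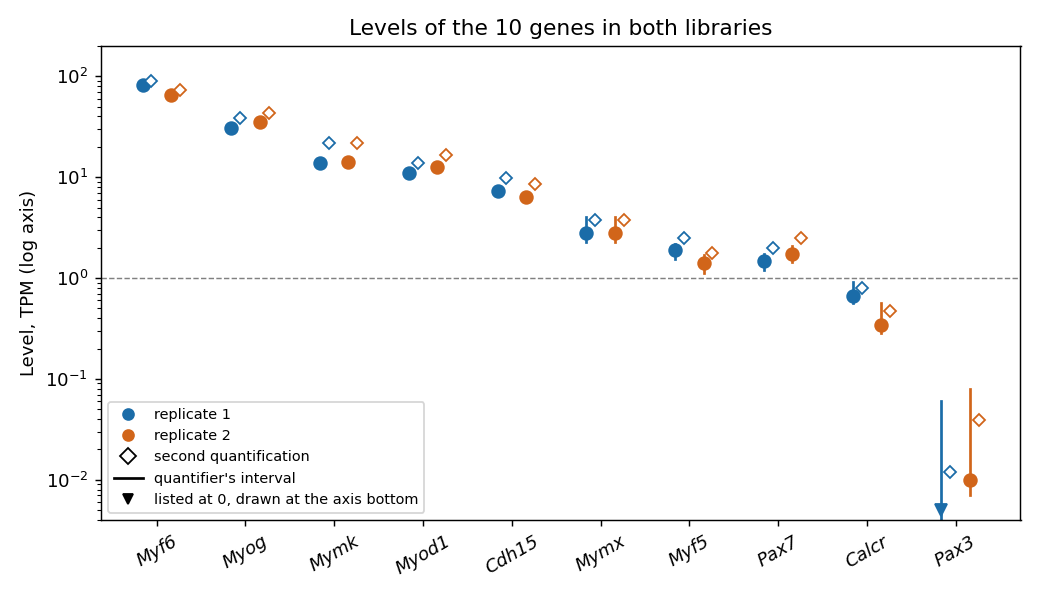
Level of each of the 10 genes in TPM on a log axis, with filled circles for the gene table (replicate 1 blue, replicate 2 orange), vertical lines for the quantifier's own interval and open diamonds for the second quantification; the dashed line marks 1 TPM. Myf6 lies highest at 81.3 and 64.9 TPM, Calcr lies under the line at 0.66 and 0.34 TPM, and Pax3, listed at 0 in replicate 1, is drawn at the bottom of the axis there.

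Pax7 (ENSMUSG00000028736.13, GRCm38 chr4:139737062-139833528, minus strand), the paired box factor that marks satellite cells, stood at 1.46 TPM in replicate 1 and 1.74 TPM in replicate 2, from 219 and 242 counts. Its mean was 1.60 ± 0.198 TPM (SD, n = 2), and the quantifier's interval ran from 1.20 to 1.74 in the first library and from 1.44 to 2.08 in the second. In the ranking of all annotated nuclear protein-coding genes by mean TPM, expressed or not, it lay at percentile 54.0. Its rank was 10134, while 10847 protein-coding genes reached 1 TPM in both libraries. The defining stem cell factor was thus low among the genes that reached that level. Pax3 (ENSMUSG00000004872.15, chr1:78101267-78197134, minus strand), its paralog in embryonic muscle progenitors, was listed at 0 counts in replicate 1 and 1 count in replicate 2. The second quantification gave it 1.01 and 3.01 counts. The floor of 3 counts corresponds to 0.0284 and 0.0315 TPM for Pax3. In replicate 1 the 95% exact binomial interval of the ratio of Pax7 to Pax3 per length had a lower limit of 41.4 and no upper limit. In replicate 2 the ratio was 166, with an interval from 29.4 to 6564. These intervals and floors cover counting error only.

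Cdh15 (ENSMUSG00000031962.6, chr8:122847966-122867397, plus strand) encodes M-cadherin, the adhesion molecule between satellite cell and fibre and between myoblasts. It had 7.30 and 6.33 TPM, with 737 and 598 counts and a mean of 6.82 ± 0.686 TPM (SD, n = 2). Both libraries therefore held several times more Cdh15 than Pax7: the TPM ratio was 5.0 in replicate 1 (95% exact binomial interval 4.31 to 5.86) and 3.64 in replicate 2 (3.13 to 4.24). Those intervals do not meet, so the ratio itself differed between the libraries beyond counting error. Cdh15 lies inside the annotated span of Gm20388, a gene on the same strand that received 315 and 4.33 counts. The 2 genes share no run of 31 bases.

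Calcr (ENSMUSG00000023964.15, chr6:3685680-3764714, minus strand), the calcitonin receptor that quiescent satellite cells carry on their surface, was the lowest of the genes above the floor. It had 0.66 TPM from 72 counts in replicate 1 and 0.34 TPM from 35 counts in replicate 2, a mean of 0.50 ± 0.226 TPM (SD, n = 2). The quantifier's intervals, 0.559 to 0.916 and 0.287 to 0.572, overlap narrowly. Per Pax7 transcript there was 0.452 of Calcr in replicate 1 (95% exact binomial interval 0.341 to 0.592) and 0.195 in replicate 2 (0.134 to 0.280). The microRNA genes Mir489 and Mir653 lie within Calcr on the same strand, and both were listed at 0 counts. Their annotated spans are shorter or barely longer than the length that the gene table subtracts to give effective length. Those 0 counts therefore cannot tell whether the microRNAs were expressed.

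Among the 4 basic helix-loop-helix factors the levels covered a wide range, with Myf6 at the top and Myf5 at the bottom. Myf6 (ENSMUSG00000035923.4, chr10:107492853-107494737, minus strand), also called MRF4 and known as the member that stays on in mature fibres, had 81.3 and 64.9 TPM from 3030 and 2263 counts. Its mean of 73.1 ± 11.6 TPM (SD, n = 2) put it at percentile 96.8 of nuclear protein-coding genes. Myf5 (ENSMUSG00000000435.1, chr10:107482908-107486134, minus strand), the earliest member in the embryo, had 1.89 and 1.41 TPM from 120 and 84 counts, a mean of 1.65 ± 0.339 TPM (SD, n = 2). These 2 genes are neighbours on chromosome 10 with 6718 bases between them, and Myf6 exceeded Myf5 by 43.0 times in replicate 1 (95% exact binomial interval 35.9 to 52.1) and 46.01 times in replicate 2 (36.9 to 57.8). The 2 intervals overlap.

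Myog (ENSMUSG00000026459.5, chr1:134289989-134292548, plus strand) encodes myogenin, the factor of terminal differentiation. It had 30.6 and 35.5 TPM from 1370 and 1486 counts, a mean of 33.1 ± 3.45 TPM (SD, n = 2). Myod1 (ENSMUSG00000009471.4, chr7:46376474-46379099, plus strand), the determination factor that can turn fibroblasts into muscle, had 11.0 and 12.7 TPM from 619 and 670 counts, a mean of 11.8 ± 1.22 TPM (SD, n = 2). Both were higher in TPM in replicate 2, whereas Myf6 and Myf5 were higher in replicate 1. The ratio of Myod1 to Myog was 0.358 in replicate 1 (95% exact binomial interval 0.325 to 0.394) and 0.357 in replicate 2 (0.326 to 0.392).

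Of the summed TPM of the 4 factors, 124.8 in replicate 1 and 114.5 in replicate 2, Myf6 took 65.1% and 56.7%. Myog took 24.6% and 31.02%, Myod1 8.79% and 11.1%, and Myf5 1.51% and 1.23%. In both libraries the factors of differentiation and of the fibre, Myf6 and Myog, thus held most of the summed level. The balance between them differed: Myf6 over Myog was 2.65 in replicate 1 (95% exact binomial interval 2.49 to 2.83) and 1.83 in replicate 2 (1.71 to 1.95).

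Mymk (ENSMUSG00000009214.9, chr2:27061636-27072179, minus strand) had 13.8 and 14.1 TPM from 566 and 542 counts, a mean of 13.9 ± 0.233 TPM (SD, n = 2). Mymx (ENSMUSG00000079471.4, chr17:45600971-45602102, minus strand) had 2.80 and 2.79 TPM from 55 counts in each library, a mean of 2.795 ± 0.00707 TPM (SD, n = 2). The quantifier's intervals of Mymx, 2.27 to 4.06 and 2.26 to 3.996, are far wider than the gap between its values. Myomaker transcripts were therefore more abundant per length than myomixer transcripts, by 4.92 times in replicate 1 (95% exact binomial interval 3.73 to 6.62) and 5.05 times in replicate 2 (3.82 to 6.79). Relative to Myog, Mymk stood at 0.449 and 0.397 and Mymx at 0.0914 and 0.0785. The second quantification gave Mymx 3.75 and 3.73 TPM from 45 counts in each library, and Mymk 21.6 and 22.0 TPM. Of the 9 genes with values, Mymk differed most between the quantifications, by 1.57 and 1.56 times.

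Myomixer is a very short protein, and its coding sequence is short enough to show whole. That of Mymx-203, the transcript with the largest share in both quantifications, has 255 bases with start and stop codons in capitals:
Mymx-203: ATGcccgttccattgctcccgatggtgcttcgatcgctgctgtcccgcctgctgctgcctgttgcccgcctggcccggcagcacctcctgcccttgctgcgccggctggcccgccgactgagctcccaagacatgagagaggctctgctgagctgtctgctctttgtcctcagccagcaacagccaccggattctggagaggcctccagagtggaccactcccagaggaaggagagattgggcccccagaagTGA
It holds 84 codons before the stop, and the coding sequences of Mymx-201 and Mymx-204 are identical to it. Mymx-202 starts further upstream and has 108 codons. For comparison, the coding sequence of Mymk-201 has 221 codons.

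**Figure D2:**
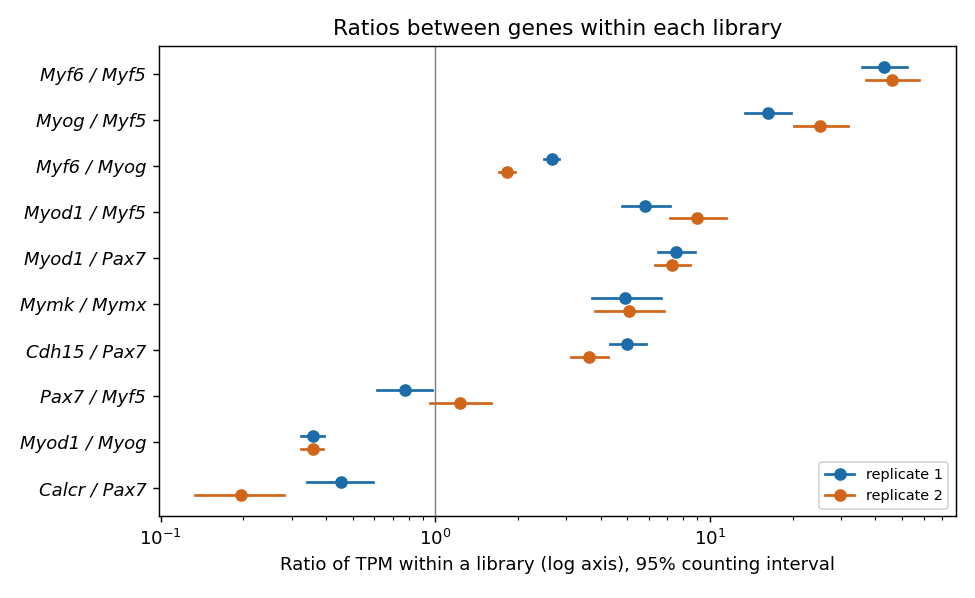
Ratio of TPM between pairs of the genes within each library on a log axis (replicate 1 blue, replicate 2 orange), with bars for the 95% exact binomial interval of the counts per effective length; the grey line marks 1. Myod1 over Myog is nearly equal in the libraries (0.358 and 0.357), whereas the bars of Myf6 over Myog (2.65 and 1.83) and of Calcr over Pax7 (0.452 and 0.195) do not meet.

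Within each library 15 ratios between the genes were formed, several of them sharing a gene, and these do not depend on how the libraries are scaled to each other. In 6 of the 15 the intervals of the 2 libraries did not meet. Besides Myf6 over Myog, Cdh15 over Pax7 and Calcr over Pax7, these were Myf6 over Myod1 (7.41 and 5.11), Myod1 over Myf5 (5.80 and 9.0) and Myog over Myf5 (16.2 and 25.2). Myod1 over Pax7 was 7.51 and 7.29, and Myog over Pax7 was 20.99 and 20.4, with overlapping intervals. Pax7 over Myf5 lay on either side of 1, at 0.772 in replicate 1 (95% exact binomial interval 0.614 to 0.971) and 1.23 in replicate 2 (0.958 to 1.60). With 2 libraries an exact sign-flip test cannot go below 0.5, so no p-value is attached to a ratio.

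The difference between the libraries was tested gene by gene by an exact binomial test (two-sided, on rounded counts, with library sizes scaled by TMM), which asks whether 2 libraries differ beyond counting error and not whether conditions differ. Over all genes with at least 10 counts, 3710 of 17245 passed an adjusted p of 0.05 (21.5%), 1881 higher in replicate 2 (10.9%) and 1829 higher in replicate 1 (10.6%). Of the 10 genes 9 could be tested, Pax3 having too few counts, and 4 passed, 2 in each direction. The share of 4 in 9 was not tested against that of all genes.

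Myog was higher in replicate 2 by 0.27 on the log2 scale (95% exact interval 0.16 to 0.38, Benjamini-Hochberg adjusted p = 9.3e-06), but stood at -0.02 (adjusted p = 0.74) when the libraries were scaled by the added ERCC RNAs. Myod1 was likewise higher by 0.27 (95% exact interval 0.11 to 0.43, adjusted p = 0.0070), and at -0.03 (adjusted p = 0.815) with the ERCC scaling. Myf6 was higher in replicate 1, at -0.27 (95% exact interval -0.35 to -0.19, adjusted p = 4.7e-10), and at -0.56 with the ERCC scaling. These 3 differences are 1.21-fold, 1.20-fold and 1.20-fold, and among the 13661 genes with at least 50 counts, 26.2% differed more than Myog, 26.7% more than Myod1 and 26.4% more than Myf6. Calcr had the largest difference of the 9, at -0.88 (95% exact interval -1.51 to -0.29, adjusted p = 0.0155), and 2.40% of those genes differed more. Its call rests on 72 against 35 counts.

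The other 5 genes did not pass the exact binomial test. Pax7 was at 0.30 (95% exact interval 0.03 to 0.57, adjusted p = 0.106) and Myf5 at -0.36 (-0.78 to 0.05, adjusted p = 0.225). Cdh15 was at -0.15 (95% exact interval -0.31 to 0.01, adjusted p = 0.189). Mymk was at 0.09 (95% exact interval -0.08 to 0.26, adjusted p = 0.547) and Mymx at 0.15 (-0.41 to 0.72, adjusted p = 0.82). The interval of Mymx, from 55 counts a library, is wider than that of Mymk.

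**Figure D3:**
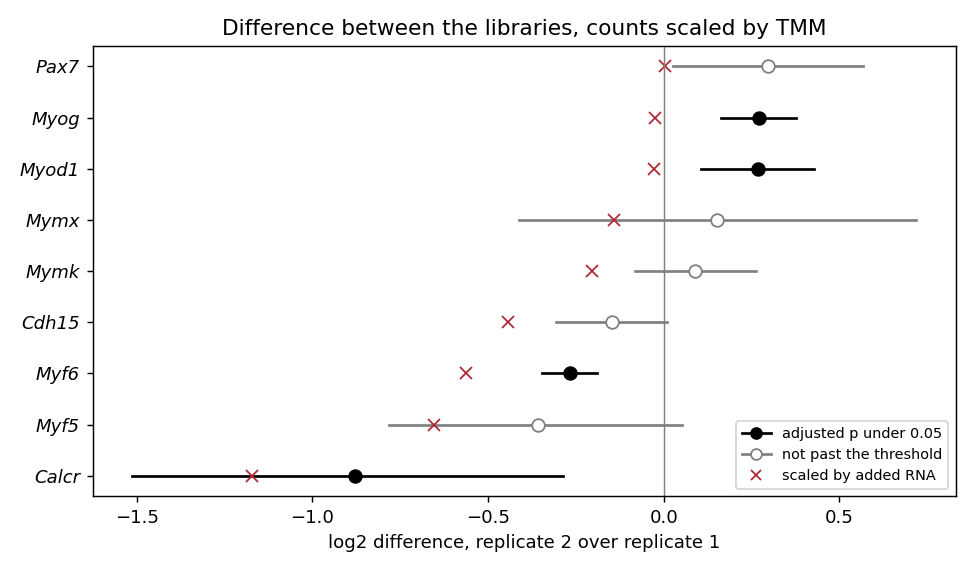
Difference between the libraries on the log2 scale (replicate 2 over replicate 1) for the 9 genes tested, with bars for the 95% exact interval; filled circles passed an adjusted p of 0.05, open circles did not, and red crosses give the value with libraries scaled by the added RNAs. Myog and Myod1 lie at 0.27, and at -0.02 and -0.03 by the crosses, while Myf6 and Calcr lie under 0 by either scaling.

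The scaling by added RNAs put the median log2 difference of genes at 1 TPM at -0.28, against 0.01 with TMM, and 3.27% of its 9052 calls were then higher in replicate 2, against 50.7% of the calls with TMM. No gene of the 10 was higher in replicate 2 by that scaling, and 5 were higher in replicate 1, namely Myf5, Myf6, Mymk, Cdh15 and Calcr. Relative to the shifted median the values were 0.26 for Myod1, 0.26 for Myog, 0.29 for Pax7, -0.28 for Myf6, -0.37 for Myf5 and -0.89 for Calcr. A change of scaling moves every gene by the same amount on the log2 scale. These values are therefore those with TMM less their median of 0.01, by construction, and add no evidence of their own. Markers of several cell types moved between the libraries as well, with TMM unless added RNAs are named. By added RNAs, 8756 of all 17245 genes tested were higher in replicate 1 and 296 in replicate 2. Each list count by that scaling, here and below, is to be read beside these. The Schwann cell list was higher in replicate 2 for 4 of 8 genes (2 by added RNAs) and lower for none by either scaling, with a summed level of 126 and 173 TPM. Endothelial markers were higher in replicate 1 for 5 of 8 genes (8 by added RNAs) and higher in replicate 2 for none, with sums of 195 and 166 TPM. Of the 8 myofibre markers 7 were higher in replicate 2 and 1 in replicate 1, but all 8 were higher in replicate 1 by added RNAs, with sums of 103839 and 111037 TPM. Their median log2 difference was 0.15, and -0.14 by added RNAs. At such depth small differences pass: Ttn, with 2871828 and 2537567 counts, was called at -0.026. Fibro-adipogenic progenitor markers summed to 377 and 356 TPM (1 of 8 higher in replicate 2, 3 in replicate 1), macrophage markers to 39.2 and 34.4 TPM (0 and 2 of 7), and pericyte and smooth muscle markers to 365 and 352 TPM (1 and 2 of 7). By added RNAs none of these 3 lists had a gene higher in replicate 2, and 8, 4 and 6 were higher in replicate 1. None of the 7 melanocyte or 7 neuron markers passed the exact test in either direction among the 4 and 2 with enough counts, with sums of 3.47 and 4.38 TPM and of 1.94 and 1.76 TPM. The part of these cell types in the differences of the 10 genes was not tested.

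Transcript shares could be followed for genes with more than 1 annotated transcript. Of 21 annotated transcripts of the 10 genes, 12 had counts in the first quantification and 15 had at least 1 count in the second. Myf5, Myod1, Myog, Myf6 and Cdh15 have a single annotated transcript each, and all counts of Mymk fell on Mymk-201 in both quantifications. For Pax7, the longer Pax7-201 took 74.4% and 72.95% of the gene's TPM, and Pax7-202 took 25.6% and 27.1%. By the second quantification Pax7-202 took 32.7% and 33.8%. In the first quantification Pax7-202 rested on 19.4 and 23.0 counts.

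The 2 Pax7 transcripts differ in the length of their ends and by 6 bases at the junction of exons 3 and 4, which is the one place where their coding sequences differ. The stretch around the junction, with the extra bases in capitals, shows that exon 4 of Pax7-202 is annotated to start 6 bases earlier than that of Pax7-201:
Pax7-201: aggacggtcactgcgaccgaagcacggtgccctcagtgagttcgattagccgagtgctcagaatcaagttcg
Pax7-202: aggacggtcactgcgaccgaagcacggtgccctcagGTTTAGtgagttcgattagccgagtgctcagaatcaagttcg
The coding sequence of Pax7-201 has 503 codons and that of Pax7-202 has 505. The deposited tables give no counts per junction, so the shares rest on the quantifiers' split of reads over the whole transcripts.

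For Mymx both quantifications put Mymx-203 first, with 74.8% and 86.7% in the first and 74.9% and 90.9% in the second. They disagreed on the rest, which the first gave to Mymx-201 (25.2% and 13.3%) and the second to Mymx-202 (25.1% and 9.12%). For Calcr the first quantification put all counts on Calcr-205, whereas the second put 85.8% and 42.9% on Calcr-202 and 14.2% and 48.3% on Calcr-205. The main transcript of Calcr was therefore not resolved by these tables, and Calcr-202 and Calcr-205 both have 496 codons.

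**Figure D4:**
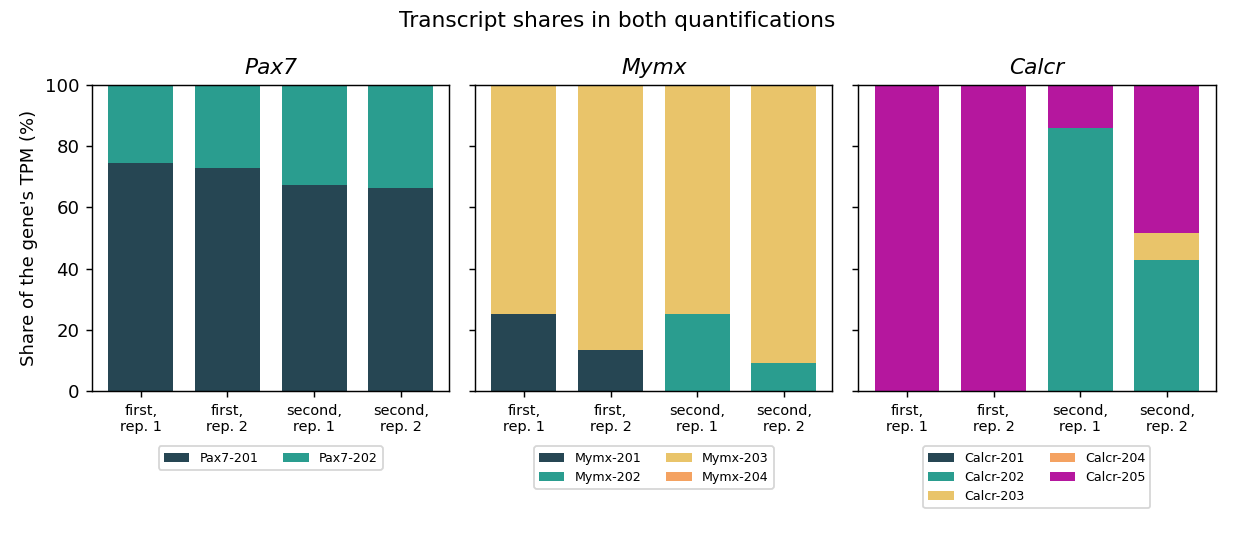
Share of each gene's TPM taken by its annotated transcripts (stacked bars, percent) in both libraries and both quantifications, for Pax7, Mymx and Calcr. Pax7-201 holds the larger share of Pax7 in all 4 bars (66.2% to 74.4%, lower in the second quantification), whereas Calcr is all Calcr-205 in the first quantification and mostly Calcr-202 in replicate 1 of the second.

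The other genes of the pathway were taken from lists, and 186 of 219 list entries, over 15 lists that share some genes, reached 1 TPM in both libraries. Of all annotated protein-coding genes 49.2% did so, and the count of each list below is to be read beside that share. Satellite cell identity and niche genes did so in 24 of 24 cases, at a median of 9.54 TPM, well above Pax7 itself, although many of these genes are also made by other cells of muscle. The most abundant were the intermediate filament desmin (Des, 701 and 723 TPM), the integrin Itgb1 (113 and 109 TPM) and the collagen Col5a1 (55.9 and 56.6 TPM). Between the libraries 3 of the 24 were higher in replicate 2 and 8 in replicate 1 (1 and 20 when scaled by added RNAs), with a median of -0.11 on the log2 scale against 0.01 over all genes at 1 TPM, both with TMM. Met, the receptor for hepatocyte growth factor, was higher in replicate 2 (3.39 and 4.81 TPM, log2 difference 0.58), and the lectin Chodl was higher in replicate 1 (10.4 and 7.10 TPM, log2 difference -0.50).

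Homeobox and MEF2 factors, which act with the basic helix-loop-helix factors at muscle genes, reached 1 TPM in 20 of 23 cases. Mef2c led with 116 and 141 TPM, followed by Mef2d with 61.4 and 62.9 TPM and Tead1 with 48.0 and 51.4 TPM, beside Myf6 at 81.3 and 64.9 TPM. Of 22 tested, 4 were higher in replicate 2 and 3 in replicate 1 (2 and 13 by added RNAs), with a median log2 difference of 0.03. The transcriptional cofactor Eya2 was higher in replicate 1 by counts (174 and 89, log2 difference -0.81), although its TPM differed less, at 2.31 and 2.01.

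E proteins, the dimer partners of the myogenic factors, and their inhibitors reached 1 TPM in 20 of 24 cases, while Tcf21 stayed under the floor. The E protein Tcf4 (41.7 and 34.6 TPM) and the zinc finger repressors Zeb1 (25.9 and 24.4 TPM) and Zeb2 (18.4 and 20.1 TPM) were highest. Of 23 tested, 4 were higher in replicate 2 and 1 in replicate 1 (1 and 12 by added RNAs), and of those past the test the repressors Bhlhe40 (13.6 and 18.0 TPM, log2 difference 0.45) and Bhlhe41 (13.5 and 15.9 TPM, log2 difference 0.39, and 0.09 and not past the test by added RNAs) differed most. All 21 co-regulators reached 1 TPM, led by the helicase Ddx5 (91.5 and 87.8 TPM), the chromatin remodelling subunit Smarcd3 (42.9 and 50.3 TPM) and the arginine methyltransferase Carm1 (28.3 and 29.8 TPM). Of these 21, 4 were higher in replicate 2 and 3 in replicate 1 (0 and 15 by added RNAs). Among those past the test the largest differences were in Ankrd1 (2.96 and 3.86 TPM, log2 difference 0.42, and 0.13 and not past the test by added RNAs) and in the histone demethylase Kdm6a (10.4 and 6.45 TPM, log2 difference -0.37).

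Adhesion and signalling genes of fusion reached 1 TPM in 26 of 35 cases, at a median of 4.72 TPM, with Kirrel2 and Nphs1 listed at 0. The cadherin partner beta-catenin (Ctnnb1, 99.9 and 101 TPM) and the small GTPases Cdc42 (90.2 and 88.9 TPM) and Rac1 (88.7 and 82.7 TPM), which drive actin remodelling at the fusion site, were each well above Mymk and Mymx. Of 33 tested, 5 were higher in replicate 2 and 3 in replicate 1 (1 and 24 by added RNAs). Cdh4, a cadherin of muscle cells, was higher in replicate 2 by counts (268 and 363, log2 difference 0.59) although its TPM was 2.09 and 2.05. The prostaglandin receptor Ptgfr was higher in replicate 1 by counts (105 and 48, log2 difference -0.97). Its TPM differed less, at 0.77 and 0.57, under 1 TPM in both libraries.

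Among 20 differentiation targets, 19 reached 1 TPM, and the structural genes Acta1 (26590 and 28620 TPM), Mylpf (26007 and 28391 TPM) and Ckm (15935 and 17422 TPM) were highest. Of these 20, 6 were higher in replicate 2, including those 3, and 5 in replicate 1 (0 and 16 by added RNAs). Among those past the test the largest differences were in the cell cycle inhibitor Cdkn1a, at 31.9 and 15.3 TPM (log2 difference -1.01), and in the acetylcholine receptor subunit Chrnd, at 2.34 and 1.16 TPM (log2 difference -0.68). Proliferation genes reached 1 TPM in 10 of 12 cases, at a median of 2.86 TPM, while Pax7 and Myf5 had means of 1.60 and 1.65 TPM. Of these 12, with a median log2 difference of -0.35, 4 were higher in replicate 1, among them Top2a (6.21 and 4.31 TPM, log2 difference -0.34) and Cdk1 (4.97 and 2.78 TPM, log2 difference -0.64), and 1, the cyclin Ccnd1 (5.65 and 10.6 TPM, log2 difference 0.83), was higher in replicate 2 (9 and 1 by added RNAs). The replication clamp Pcna, at 11.2 and 10.5 TPM, did not pass.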

How the data were processed

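Total RNA of gastrocnemius was measured in 2 libraries of 1 group. Per the deposited description, the authors derived the gene table and the first transcript table of a library from transcriptome alignments, and the second transcript table from unaligned reads with an index (mm10, GENCODE M21). Which aligner and quantifiers they ran is not given in the sources used here. In unit, the deposited tables hold expected counts (estimated reads, not normalised) and TPM, which the authors scaled over all entries of a table. The deposited transcript shares are percent of a gene's TPM, and the bounds of the quantifier's interval of the TPM are deposited as a score of the quantifier. The reference is not specific to CAST alleles.

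Expected counts were rounded for the exact binomial test, run wherever both libraries together held 10 counts or more. It was given TMM library sizes (edgeR 4.0.16, R 4.3.3), with Benjamini-Hochberg adjustment over every gene in the test. Log2 differences carry a prior of 0.5 counts. Each adjusted p printed comes from this test. Its code was tested on simulated counts with counting error only, so the simulation does not cover variation between libraries. With 1 group no quasi-likelihood contrast exists. DESeq2 1.42.0 size factors, total counts, added RNA totals, other count minimums and the second quantification (summed per gene) were alternatives. Ratio intervals are exact (Clopper-Pearson, 95%) in scipy 1.17.1.

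Although the rule for the 10 genes uses no measured value, the genes and lists were chosen with earlier results of these data known, so the choice was not independent of them. Named are all 10 genes, the 3 genes of each pathway list with the highest mean TPM and the 2 with the largest difference past the test, and any transcript whose mean share was 10% or more in either quantification; marker lists are mostly given by sums. A gene that meets this rule is not reported here. Genes at 0 and under the floor that are named with the lists were chosen after their values were seen. Length minus effective length is 99 bases in the gene table and about 339 and 337 bases in the second quantification; its part in the differences between them was not tested. No value column of another sample was present.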

Additional observations from a re-analysis of the deposited data

How the results depend on the processing

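The second quantification moved the mean TPM ratio of Myf6 to Myf5 from 44.5 to 38.7, of Myod1 to Myog from 0.358 to 0.373, of Myod1 to Pax7 from 7.40 to 6.93 and of Mymk to Mymx from 4.99 to 5.83, each by more than the SD of the 2 libraries. Ratios of expected counts, which are not per length, were 26.1, 0.451, 2.80 and 10.1 for the same pairs, and 2.92 for Cdh15 to Pax7 (4.32 per length). The mean share of Pax7-201 was 73.7% in the first quantification and 66.8% in the second, and that of Calcr-205 was 100% and 31.2%. Both moved by more than the SD of the 2 libraries. At 5 TPM in place of 1 TPM, 5 genes reached the level. Rescaling TPM over nuclear protein-coding genes alone raised each mean level, for Pax7 from 1.60 to 3.41, for Calcr from 0.50 to 1.07 and for Myf6 from 73.1 to 156.02 TPM, so the levels against 1, 5 and 10 TPM hold for the deposited scale. Scaling by added RNAs gave 9052 of 17245 genes past the exact binomial test against 3710. Of all genes 296 were then higher in replicate 2 and 8756 in replicate 1. The same scaling put 0 of the 10 genes higher in replicate 2 and 5 in replicate 1. It turned the log2 differences of Myod1 (-0.027), Myog (-0.024), Mymk (-0.20, adjusted p = 0.0375 by the exact binomial test) and Mymx (-0.14), and brought Myf5 (-0.65) and Cdh15 (-0.44) past the threshold. On log2(TPM + 1) and log2(TPM + 0.1), Mymx was at -0.0038 and -0.0050. Pax7 passed in the second quantification (0.37, adjusted p = 0.0219 by the exact binomial test). With DESeq2 size factors, total counts and both other count minimums, Myod1, Myog, Myf6 and Calcr were the genes that passed, as with TMM. Scaling by added RNAs moves every gene by the same amount on the log2 scale, so its turns of sign are not particular to these genes. Ratios of expected counts differ from TPM ratios by effective length. Why the scalings differ, and the cause of the other changes, was not tested.

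Leaving out a replicate leaves the value of the other library: the ratio of Myf6 to Myf5 ranged from 43.0 to 46.01, Myod1 to Myf5 from 5.80 to 9.0, Myf6 to Myog from 1.83 to 2.65, Cdh15 to Pax7 from 3.64 to 5.0 and Calcr to Pax7 from 0.195 to 0.452. The test between the libraries has no such value. No paired analysis was possible because the series has 1 group. Depth limits Mymx (55 counts a library), Calcr (72 and 35) and Pax3 most.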
